A study of Homo sapiens with 3 samples.

Results

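The genes described here are 10 kinase genes of mitosis: PLK1, PLK4, AURKA, AURKB, TTK, BUB1, BUB1B, NEK2, MELK and PBK. They were chosen by name, with earlier results of these data known. Every probe set annotated to 1 of these symbols alone was taken, which gave 19 of the 44988 probe sets with a single gene symbol. All 10 genes were measured, of 18131 genes with a probe set and 11286 measured. A gene is called measured where its probe set of highest mean intensity was above an intensity of 26.0, the median of all values, on at least 1 array.

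The kinases drive successive steps of cell division. Aurora and Polo kinases build the centrosomes and the spindle and carry cells through mitosis, while TTK, BUB1 and BUB1B belong to the spindle checkpoint, which delays anaphase until all kinetochores are attached. Their transcripts are made mainly in G2 and M phase, so in a cell population they are known as markers of proliferation. PLK1 and AURKA are among the genes that the study followed up from these arrays, so they are not independent evidence of a direction.

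Total RNA from cells with the cell line label LNCaP, an established human prostate cancer line, was hybridised to Affymetrix arrays, 1 array for each of 3 groups. The groups were cells transfected for 48 h with 75 nM of HOXD-AS1 siRNA 1, of HOXD-AS1 siRNA 2, or of a negative control siRNA, all with the same lipid carrier and in phenol red-free medium with serum. HOXD-AS1 is a long non-coding RNA of the HOXD cluster. The series looked for genes that differed from the control with both siRNAs. With 1 array per group no difference below has a replicate check or a test, and each fold describes these libraries only, with a precision set by the small number of arrays.

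The label for the source of the cells differed between the groups. It read LNCaP-Bic for siRNA 1, LNCaP-AI for siRNA 2 and LNCaP for the control, while the cell line label was LNCaP in all 3, so a difference between siRNAs and a difference between cells of these names cannot be told apart. The labels place the siRNA target positions, 588 and 1290, on the coding sequence of WDR5, whereas HOXD-AS1 is the target in the titles, and which transcript the positions count along is unclear. The inhibition rate in the labels is 0.23 for siRNA 1 and 0.25 for siRNA 2, against 1 for the control, without saying whether that is the remaining level. The annotation used here held 0 probe sets for HAGLR, as HOXD-AS1 is now called, and the targeted transcript was not analysed here. Of 9 listed markers of LNCaP or luminal prostate cells, 7 had a probe set and all 7 were measured, with summed intensities of 13990, 11633 and 13396 with siRNA 1, siRNA 2 and control siRNA. Of basal, stromal and leukocyte markers, 4 of 9 with a probe set were measured. Summed over all 9, measured or not, intensities per cell type lay between 59.9 and 107 on every array. PTPRC was at 3.14 on all 3 arrays, while the stromal marker COL3A1 read 28.4 with siRNA 1, 50.4 with siRNA 2 and 17.9 with the control siRNA.

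The siRNA strands given in the labels, which define the groups, are shown with the last 2 bases in capitals, the usual position of the unpaired overhang.
siRNA 1: gaaagaaggaccaaaguaaUU
siRNA 2: gcccuuucugaccugcuuaUU
control siRNA: uucuccgaacgugucacguTT

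All 10 kinase genes had lower intensities with siRNA 1 than with the control siRNA, and 9 of them were at least 2-fold lower. The exception was PLK4, the kinase that starts centriole duplication. Among all measured genes 1.76% were at least 2-fold lower in this comparison. Their levels with siRNA 1 were between 31.4% of the control level for AURKB and 56.5% for PLK4. The median log2 difference of the kinase genes was -1.30, a 2.46-fold lower level, against 0.00 for all measured genes. In bulk RNA, fewer dividing cells and less of these transcripts per cell cannot be told apart.

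With siRNA 2 the levels of all 10 genes also lay below the control, by less. Between 55.0% of the control level, for NEK2, and 88.2%, for PLK4, remained. Of the 10, 0 were 2-fold lower, where 0.603% of all measured genes were, and their median log2 difference was -0.61, against 0.01 for all measured genes. At a threshold of 1.5-fold, 6 of the 10 were lower with siRNA 2, beside 4.67% of all measured genes, and at 3-fold 1 of the 10 was lower with siRNA 1, beside 0.168%. The comparisons of siRNA 1 and of siRNA 2 share the control array, so that array's own deviation enters both.

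The siRNA libraries were also compared directly. All 10 genes were lower with siRNA 1 than with siRNA 2, with a median log2 difference of -0.79, against -0.02 for all measured genes. Only AURKB was 2-fold lower, 1 gene of 10, beside 0.656% of all measured genes. At 1.5-fold 8 of the 10 were lower with siRNA 1 than with siRNA 2, beside 4.87%, and at 3-fold 0 were, beside 0.0443%. Of all measured genes 53.1% were lower with siRNA 1 than with siRNA 2, 48.0% were lower with siRNA 1 than with the control and 46.9% were lower with siRNA 2 than with the control.

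**Figure D1:**
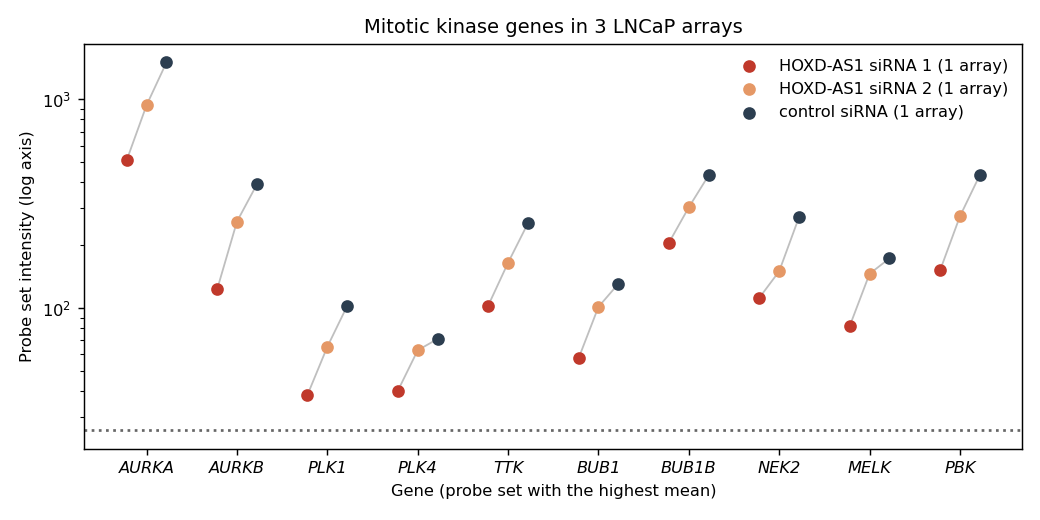
Intensity (log axis) of the 10 kinase genes, each represented by its brightest probe set, in the arrays of siRNA 1, siRNA 2 and control siRNA from left to right within a gene. Points are single arrays, grey lines join the arrays of a gene and the dotted line is the intensity of 26.0 used as a floor. In each gene the siRNA 1 point is lowest and the control point highest.

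**Figure D2:**
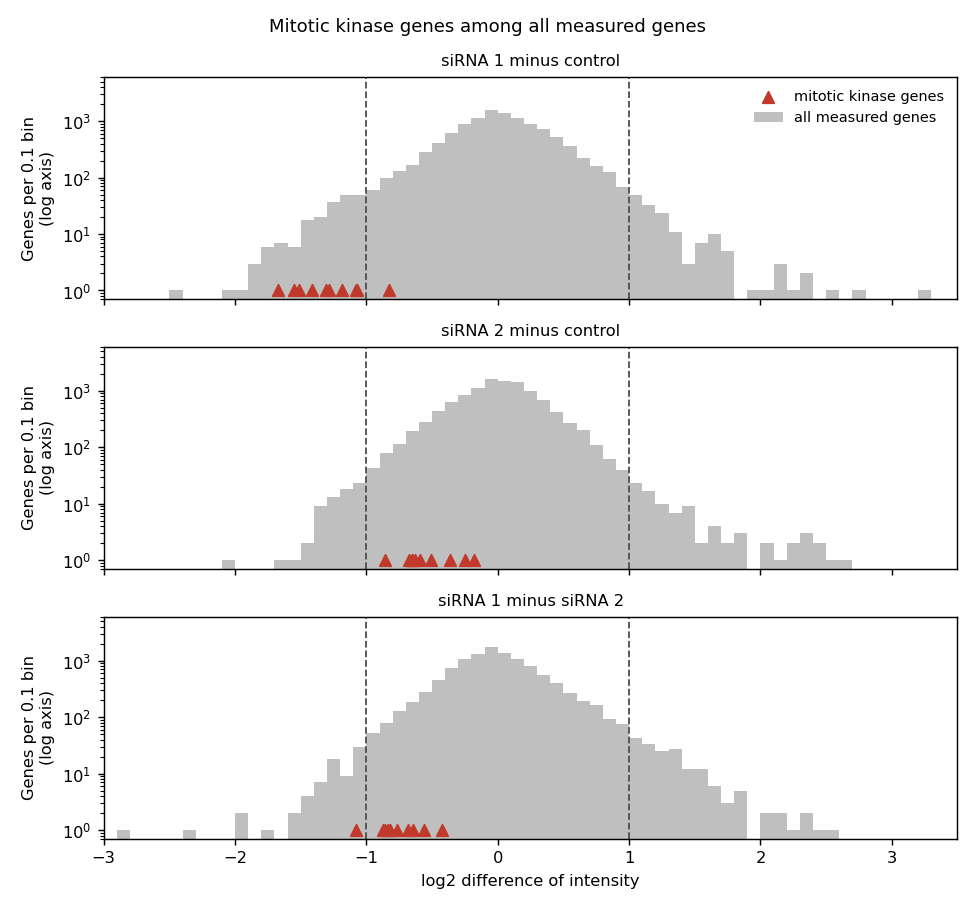
Distribution of log2 differences over 11286 measured genes (grey bars, log axis) with the 10 kinase genes as red triangles, for siRNA 1 minus control, siRNA 2 minus control and siRNA 1 minus siRNA 2. Dashed lines mark 2-fold differences. The triangles lie between -1.67 and -0.82 in the top panel, between -0.86 and -0.18 in the middle panel and between -1.08 and -0.42 in the bottom panel.

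The Aurora kinases had the largest differences with siRNA 1. AURKA, which matures centrosomes and organises the spindle poles, read 511 with siRNA 1, 938 with siRNA 2 and 1501 with the control siRNA. Its log2 differences from the control were -1.55 (siRNA 1) and -0.68 (siRNA 2), or 2.94-fold lower with siRNA 1 and 1.60-fold with siRNA 2. AURKB, the catalytic subunit of the chromosomal passenger complex, which corrects wrong kinetochore attachments, read 123 with siRNA 1, 260 with siRNA 2 and 391 with the control siRNA. It was 3.18-fold lower than the control with siRNA 1, rank 14 from the lowest of 11286 measured genes, and 1.51-fold lower with siRNA 2, rank 517. With siRNA 1 AURKB was 2.12-fold lower than with siRNA 2, the widest gap between the siRNA libraries among the 10 genes. Each Aurora gene had 1 probe set with a single symbol. A further probe set shared by AURKA, its pseudogene AURKAP1 and RAB3GAP2, which the rule leaves out, read 35.8 with siRNA 1, 55.2 with siRNA 2 and 88.7 with the control siRNA.

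The Polo-like kinases differed from each other in size. PLK1, which acts at centrosomes, kinetochores and the midbody from mitotic entry to cytokinesis, read 38.4 with siRNA 1, 65.3 with siRNA 2 and 102 with the control siRNA. That is a log2 difference of -1.42 with siRNA 1 and -0.65 with siRNA 2. A second PLK1 probe set gave 31.4 with siRNA 1, 47.4 with siRNA 2 and 84.1 with the control siRNA, with log2 differences of -1.42 (siRNA 1) and -0.83 (siRNA 2). Both placed the siRNA libraries below the control. The third PLK1 probe set stayed under the floor on every array, at 9.62 with siRNA 1, 13.7 with siRNA 2 and 12.5 with the control siRNA. PLK4 read 40.2 with siRNA 1, 62.8 with siRNA 2 and 71.2 with the control siRNA, which is 1.77-fold lower than the control with siRNA 1 and 1.13-fold with siRNA 2. These were the smallest differences from the control among the 10 genes. The other PLK4 probe set was under the floor, between 4.28 and 5.02.

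The checkpoint kinases lay between these. TTK, also called MPS1, which recruits checkpoint proteins to unattached kinetochores, read 103 with siRNA 1, 165 with siRNA 2 and 255 with the control siRNA, which is 2.48-fold lower with siRNA 1 and 1.55-fold with siRNA 2. BUB1, a kinetochore kinase that marks centromeric chromatin for cohesin protection, read 57.4 with siRNA 1, 101 with siRNA 2 and 131 with the control siRNA. Its siRNA 2 value was 77.5% of the control and its siRNA 1 value 44.0%. BUB1B, which encodes BUBR1, a subunit of the mitotic checkpoint complex, read 206 with siRNA 1, 304 with siRNA 2 and 432 with the control siRNA. Of the 3 genes, BUB1B had the smallest difference with siRNA 1 (-1.07 on the log2 scale) and BUB1 the smallest with siRNA 2 (-0.37). TTK is represented by 1 probe set whose suffix, _s, marks probes shared between transcripts of more than 1 gene, so its value is less specific than those of BUB1 and BUB1B.

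NEK2, the kinase that dissolves the linker between centrosomes at mitotic entry, had 7 probe sets and stood apart in its siRNA 2 value. The probe set used for the gene read 112 with siRNA 1, 150 with siRNA 2 and 273 with the control siRNA. Its log2 difference was -1.28 with siRNA 1 and -0.86 with siRNA 2, which was the largest siRNA 2 difference of the 10 genes on the probe set used. That place depends on the choice of probe set. Without a floor, the siRNA 2 differences of the 7 NEK2 probe sets ran from -1.47 to -0.42. With the floor, their mean was -0.29 and the dimmest measured probe set gave -0.09, where values at the floor make both only bounds. In the probe set used, the gap between the siRNA libraries, -0.42, was the smallest of the 10. This probe set has the suffix _x, for probes that also resemble other transcripts. In 4 other probe sets only the control array was above the floor. Without a floor, all 7 probe sets were lower than the control in each siRNA library, at 28.1% to 69.4% of the control level with siRNA 1 and 36.2% to 75.0% with siRNA 2. In the probe set with the suffix _s the siRNA 2 value, 16.4, was below the siRNA 1 value, 18.1, against 37.3 in the control, and in the 6 others the siRNA 1 value was the lowest.

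**Figure D3:**
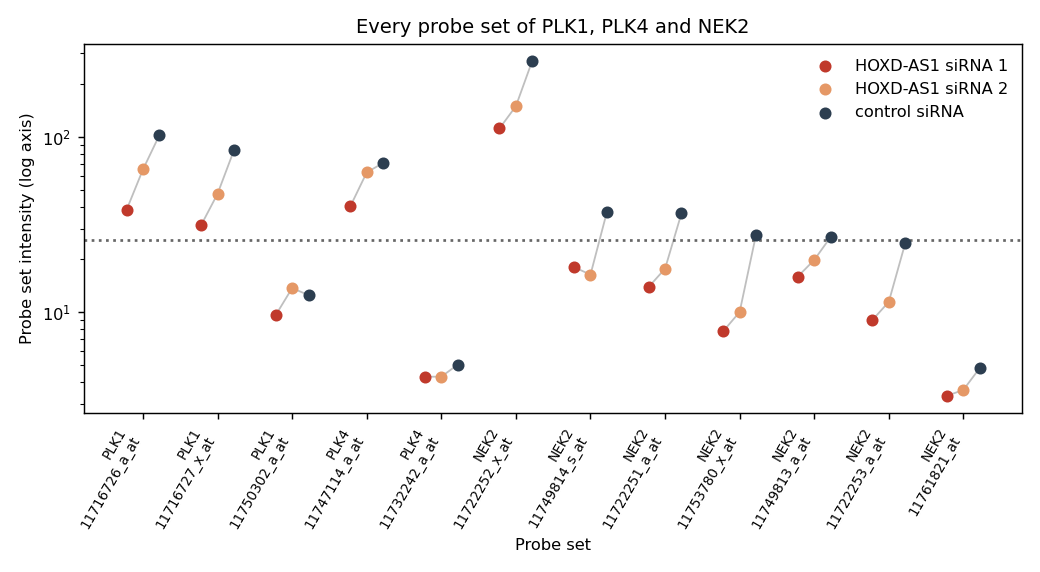
Intensity (log axis) of all probe sets of PLK1, PLK4 and NEK2 in the arrays of siRNA 1, siRNA 2 and control siRNA from left to right, ordered by control intensity within a gene. The dotted line is the floor of 26.0. Of these 12 probe sets, 4 lie above the floor on all 3 arrays, and each of these has its highest point in the control array.

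MELK and PBK act less directly on the mitotic apparatus. MELK, a kinase of the AMPK-related family that is abundant in dividing and stem-like cells, read 81.9 with siRNA 1, 146 with siRNA 2 and 173 with the control siRNA. It was 2.11-fold lower with siRNA 1 but kept 84.3% of the control level with siRNA 2. PBK, also called TOPK, a MAPKK-like kinase that is phosphorylated in mitosis, read 151 with siRNA 1, 275 with siRNA 2 and 433 with the control siRNA, which is 2.86-fold lower with siRNA 1 and 1.58-fold with siRNA 2. PBK was thus close in its differences to AURKA, and MELK was among the 3 genes, with BUB1 and PLK4, that kept more than 75% of the control level with siRNA 2.

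Over single probe sets, 15 of the 19 were above the floor on at least 1 array. With siRNA 1, 10 of the 15 were at least 2-fold lower than the control, beside 1.5% of all 23896 measured probe sets. With siRNA 2, 0 of the 15 were, beside 0.644%, and 1 of the 15 was 2-fold lower with siRNA 1 than with siRNA 2, beside 0.531%. Where an siRNA value is under the floor, the floored difference is only a bound, and this holds for 4 of the 15, all of NEK2. Their control values lay between 26.9 and 37.3, so a 2-fold drop could not show above the floor. Without a floor these NEK2 probe sets gave -1.05, -0.43, -1.19 and -1.47 with siRNA 2, so the count of 0 rests on the floor. Without a floor 19 of the 19 were below the control with siRNA 1, where 51.9% of all 44988 probe sets with a single symbol were, and 18 with siRNA 2, where 47.9% were. The exception was the dim PLK1 probe set.

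Genes of this class are known to be regulated through promoter elements called CHR and CCAAT boxes, which are bound by the DREAM and MuvB complexes and by NF-Y. The RefSeq promoter table of GRCh38.p14, which holds 250 bases before and 50 after an annotated start, listed 7 of the 10 genes and not AURKA, TTK and PBK. The CHR hexamer TTTGAA was found on either strand in 3 of the 7 windows, beside 15.4% of all 27305 promoters and 9.32% of the 9323 promoters of measured genes. Its variant TTCGAA was in 1 of 7 (1.45% and 1.78%), and CCAAT in 4 of 7 (35.7% and 37.3%). The E2F heptamers TTGGCGC and TTCCCGC, counted together on either strand, were in 0 of 7 (9.33% and 15.0%). No match overlapped another in these windows. The last 160 bases before the start are shown for the 2 genes with a CHR hexamer there, for the 2 with a pair of CCAAT boxes, and for PLK4, the gene with the smallest differences, 5′ to 3′ on the gene's strand with motif letters in capitals.
PLK1, chr16:23678729-23678888, plus strand: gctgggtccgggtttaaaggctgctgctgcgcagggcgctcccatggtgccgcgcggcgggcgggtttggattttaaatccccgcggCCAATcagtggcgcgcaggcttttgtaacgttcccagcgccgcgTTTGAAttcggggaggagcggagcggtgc
BUB1B, chr15:40160909-40161068, plus strand: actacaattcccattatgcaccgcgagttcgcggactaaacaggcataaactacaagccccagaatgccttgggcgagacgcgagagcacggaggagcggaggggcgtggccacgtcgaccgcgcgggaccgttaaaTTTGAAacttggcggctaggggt
BUB1, chr2:110678064-110678223, minus strand: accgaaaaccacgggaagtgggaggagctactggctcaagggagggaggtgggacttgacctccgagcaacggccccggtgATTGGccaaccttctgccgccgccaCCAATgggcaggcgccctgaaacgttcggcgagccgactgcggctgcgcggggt
NEK2, chr1:211675622-211675781, minus strand: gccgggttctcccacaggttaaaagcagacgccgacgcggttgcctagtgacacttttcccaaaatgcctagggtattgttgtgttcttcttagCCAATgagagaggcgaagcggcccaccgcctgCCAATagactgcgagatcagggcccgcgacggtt
PLK4, chr4:127880733-127880892, plus strand: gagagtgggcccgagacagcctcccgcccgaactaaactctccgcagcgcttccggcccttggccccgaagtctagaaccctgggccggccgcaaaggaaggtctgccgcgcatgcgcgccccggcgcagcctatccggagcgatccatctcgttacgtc

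In PLK1 a CCAAT box at positions -73 to -69 from the start preceded the CHR hexamer at -29 to -24. BUB1B had a CHR hexamer at -23 to -18 and no CCAAT box. BUB1 had CCAAT boxes at -79 to -75, on the opposite strand, and at -54 to -50, with the hexamer variant at 2 to 7 after the start. NEK2 had CCAAT boxes at -66 to -62 and -34 to -30. The one match in PLK4 was a hexamer on the opposite strand at 39 to 44 after the start, AURKB had a CCAAT box on the opposite strand at -153 to -149, and MELK had no match. A match is a string of letters and says nothing of binding, and no match says only that these letters are not in the window.

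**Figure D4:**
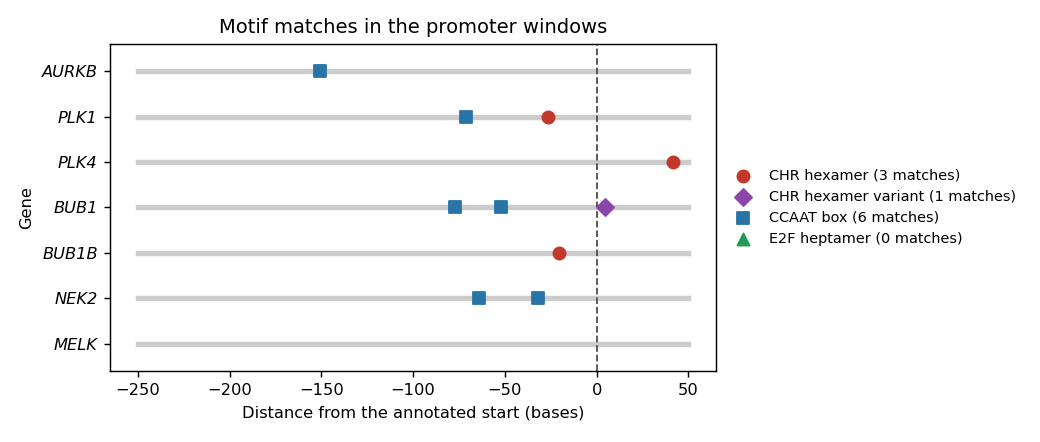
Positions of motif matches in the promoter windows of the 7 kinase genes that the table lists, in bases from the annotated start (dashed line). Grey bars are the windows of 250 bases before and 50 after the start. Symbols mark the 3 CHR hexamers, the 1 variant and the 6 CCAAT boxes, and no E2F heptamer was found.

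The measured paralogues of the same kinase families stayed within 2-fold of the control, as most measured genes did. Of 14 listed Polo, Aurora and NEK genes, 9 were measured, and 0 were 2-fold lower or higher with either siRNA. Of all measured genes 1.76% were at least 2-fold lower and 1.36% higher with siRNA 1, and 0.603% and 0.789% with siRNA 2. A count of 0 among 9 genes is near these shares and sets the paralogues apart from other genes in no way. The median log2 difference of the 9 was 0.00 with siRNA 1 and -0.01 with siRNA 2. PLK2, a stress-responsive Polo kinase, read 79.7 with siRNA 1, 40.4 with siRNA 2 and 46.6 with the control siRNA. NEK3 had 39.2 with siRNA 1, 26.4 with siRNA 2 and 47.3 with the control siRNA, so its lowest value was in the siRNA 2 library. NEK7, a kinase needed for the NLRP3 inflammasome, had differences of 0.40 (siRNA 1) and -0.50 (siRNA 2), and NEK4 of -0.24 (siRNA 1) and 0.08 (siRNA 2). PLK3, a further Polo kinase named here outside the rule and after its values were known, had differences of 0.19 (siRNA 1) and -0.16 (siRNA 2). Over all measured genes, 1.56% were at least 2-fold higher with siRNA 1 than with siRNA 2, and PLK2, at a difference of 0.98 between the siRNA libraries, was just short of that.

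Activators and partners of the Aurora kinases were mostly lower with siRNA 1. Of 10 measured genes, 5 were at least 2-fold lower and 1 higher with siRNA 1, beside 1.76% and 1.36% of all measured genes. With siRNA 2, 0 passed, beside 0.603% lower and 0.789% higher. The list medians were -0.85 (siRNA 1) and -0.26 (siRNA 2). TPX2, which activates AURKA on spindle microtubules, read 166 with siRNA 1, 306 with siRNA 2 and 469 with the control siRNA. CDCA8, the borealin subunit that places AURKB at centromeres, read 56.5 with siRNA 1, 104 with siRNA 2 and 200 with the control siRNA. NEDD9, a scaffold that binds and activates AURKA, was the gene that was higher, at 167 with siRNA 1, 107 with siRNA 2 and 64.3 with the control siRNA. Of its 3 other measured probe sets, 1 differed by 1.02 with siRNA 1. Another differed by 0.66, which is only a bound because its control value, 18.1, was under the floor. The remaining one was under the floor with siRNA 1 and with the control and gives no difference. AJUBA, a LIM-domain activator of AURKA, differed by 0.05 (siRNA 1) and -0.11 (siRNA 2), and by 0.28 (siRNA 1) and -0.11 (siRNA 2) in its other probe set.

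Of 13 measured Polo kinase partners and substrates, 7 read at least 2-fold below the control with siRNA 1 and 0 with siRNA 2. The shares of all measured genes were 1.76% and 0.603%, and the list medians were -1.15 (siRNA 1) and -0.36 (siRNA 2). KIF20A, a kinesin that PLK1 binds in cytokinesis, read 97.4 with siRNA 1, 176 with siRNA 2 and 325 with the control siRNA. STIL, the centriole protein that PLK4 phosphorylates, read 83.2 with siRNA 1, 155 with siRNA 2 and 231 with the control siRNA, or -1.47 (siRNA 1) and -0.58 (siRNA 2) on the log2 scale, while a second STIL probe set gave -0.57 (siRNA 1), only a bound because that array was under the floor, and -0.45 (siRNA 2). The centriole cartwheel gene SASS6 differed by -0.05 (siRNA 1) and -0.17 (siRNA 2) and CEP192, which recruits PLK4 and the Aurora and Polo kinases to centrosomes, by -0.17 (siRNA 1) and -0.17 (siRNA 2). PLK4 partners were thus both among the lowest and among the least different genes of the list.

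Of 11 measured checkpoint partners, 5 read at least 2-fold below the control with siRNA 1 and 1 with siRNA 2. Among all measured genes 1.76% and 0.603% did, and the list medians were -0.99 (siRNA 1) and -0.42 (siRNA 2). CDC20, the activator of the anaphase-promoting complex that the checkpoint inhibits, was lowest, at 173 with siRNA 1, 337 with siRNA 2 and 703 with the control siRNA, but its second probe set had differences of only -1.14 (siRNA 1) and -0.48 (siRNA 2). The outer kinetochore gene NDC80 read 151 with siRNA 1, 281 with siRNA 2 and 415 with the control siRNA. MAD1L1, which carries MAD2 to kinetochores, differed by 0.32 (siRNA 1) and 0.37 (siRNA 2), and ZW10, a subunit of the complex that strips checkpoint proteins from kinetochores, by 0.33 (siRNA 1) and 0.44 (siRNA 2). Genes of the list thus lay on both sides of the control, and TTK, BUB1 and BUB1B on the side of CDC20 and NDC80.

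The centrosome linker genes on which NEK2 acts lay on both sides of the control. Of 6 measured genes 1 read at least 2-fold below the control with siRNA 1 and 0 did with siRNA 2. The shares of all measured genes were 1.76% and 0.603%, and the list medians were 0.14 (siRNA 1) and -0.01 (siRNA 2). CNTLN, a linker protein, had differences of -1.01 (siRNA 1) and -0.62 (siRNA 2), and in its second probe set both siRNA values were under the floor, so that the value of -0.32 for each is only a bound. LRRC45 had -0.44 (siRNA 1) and -0.11 (siRNA 2). STK3, the MST2 kinase that acts upstream of NEK2, differed by 0.82 (siRNA 1) and 0.39 (siRNA 2), and CEP250, the C-NAP1 anchor that NEK2 phosphorylates, by 0.32 (siRNA 1) and 0.17 (siRNA 2). The other probe set of CEP250 went the other way, by -0.14 (siRNA 1) and -0.30 (siRNA 2).

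Among 13 other measured kinases of the cell cycle, 4 were at least 2-fold lower with siRNA 1, 1 was higher, and 0 passed with siRNA 2. Over all measured genes the shares were 1.76% lower and 1.36% higher with siRNA 1, and 0.603% and 0.789% with siRNA 2. The medians of the 13 kinases were -0.63 (siRNA 1) and -0.16 (siRNA 2). CIT, the citron kinase of cytokinesis, read 103 with siRNA 1, 168 with siRNA 2 and 267 with the control siRNA. HASPIN, which phosphorylates histone H3 to place AURKB at centromeres, read 19.7 with siRNA 1, below the floor, 32.4 with siRNA 2 and 60.7 with the control siRNA, so its log2 difference of -1.22 with siRNA 1 is only a bound. LATS2, a Hippo pathway kinase, was higher, at 374 with siRNA 1, 298 with siRNA 2 and 180 with the control siRNA. Its second probe set read 47.4 with siRNA 1, 29.8 with siRNA 2 and 22.4, below the floor, with the control siRNA. Its log2 difference of 0.87 with siRNA 1 is thus only a bound. TLK2, a chromatin assembly kinase, differed by 0.24 (siRNA 1) and 0.24 (siRNA 2). Its 3 other measured probe sets differed by more, from 0.35 to 0.85 with siRNA 1 and from 0.39 to 0.69 with siRNA 2.

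**Figure D5:**
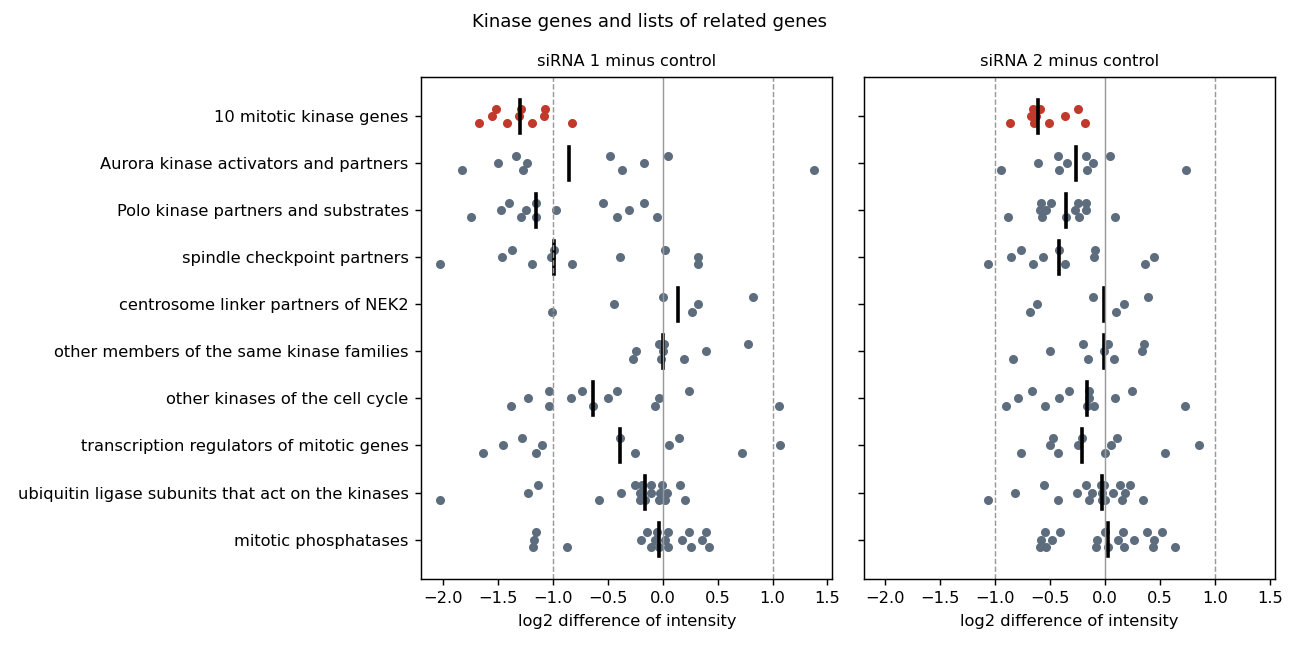
Log2 differences from the control array for the 10 kinase genes (red) and the measured genes of 9 related lists (grey), with siRNA 1 on the left and siRNA 2 on the right. Points are genes, staggered vertically for legibility, black bars are medians and dashed lines mark 2-fold differences. The kinase genes had the lowest median of these sets in each panel, -1.30 and -0.61, and the paralogues, phosphatases and centrosome linker genes had medians between -0.03 and 0.14. The rank in the left panel depends on the floor. With a floor at the 75th percentile the siRNA 1 median was -1.21 for the Aurora partners and -1.13 for the kinase genes.

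Transcription regulators of mitotic genes were split. Of 11 measured, 5 were at least 2-fold lower and 1 higher with siRNA 1, beside 1.76% and 1.36% of all measured genes. With siRNA 2, 0 passed, beside 0.603% lower and 0.789% higher. The medians were -0.39 (siRNA 1) and -0.21 (siRNA 2). E2F1, an activator of the G1/S programme, read 65.5 with siRNA 1, 171 with siRNA 2 and 203 with the control siRNA, so its siRNA 2 value was closer to the control. FOXM1, which activates PLK1, AURKB and other G2/M genes, read 86.4 with siRNA 1, 139 with siRNA 2 and 236 with the control siRNA. RBL2, the p130 pocket protein of the DREAM repressor, read 106 with siRNA 1, 93.7 with siRNA 2 and 64.3 with the control siRNA, and CDKN1A, the p21 inhibitor, 6551 with siRNA 1, 5642 with siRNA 2 and 3129 with the control siRNA. CDKN1A passed 2-fold with siRNA 1 only, at 1.07 on the log2 scale against 0.85 with siRNA 2, and RBL2 stayed under 2-fold, at 0.72 (siRNA 1) and 0.54 (siRNA 2). The other measured RBL2 probe sets gave 0.42 and 0.57 with siRNA 1 and -0.05 and 0.52 with siRNA 2. The part of these regulators in the kinase levels was not tested.

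Of 19 measured subunits and cofactors of the ubiquitin ligases that degrade these kinases, 3 passed 2-fold downwards with siRNA 1 and 1 with siRNA 2. Among all measured genes 1.76% and 0.603% did, and the list medians were -0.16 (siRNA 1) and -0.03 (siRNA 2). The lowest genes of the list with siRNA 1 were CDC20 and UBE2C, the ubiquitin-conjugating enzyme that works with CDC20. UBE2C read 1106 with siRNA 1, 1753 with siRNA 2 and 2579 with the control siRNA. CDC26, a small structural subunit of the anaphase-promoting complex, differed by 0.20 (siRNA 1) and 0.16 (siRNA 2) and SKP1, the adaptor of SCF ligases, by 0.16 (siRNA 1) and -0.03 (siRNA 2), which its other probe set gave as 0.73 (siRNA 1) and -0.22 (siRNA 2). Of 19 measured mitotic phosphatase genes, 3 passed 2-fold downwards with siRNA 1 and 0 did with siRNA 2, beside the same 1.76% and 0.603%. Their medians were -0.03 (siRNA 1) and 0.02 (siRNA 2). CDC25A and CDC25B, activators of cyclin-dependent kinases, differed by -1.18 (siRNA 1) and -0.54 (siRNA 2) and by -1.17 (siRNA 1) and -0.48 (siRNA 2), and no other measured probe set of either passed 2-fold with siRNA 1, although those of CDC25A were under the floor there and give only bounds. PPP2R5A, a regulatory subunit of PP2A, differed by 0.42 (siRNA 1) and 0.44 (siRNA 2), but its other probe set gave 0.13 (siRNA 1) and -0.33 (siRNA 2), so its direction with siRNA 2 depends on the probe set. PPP1CB, a catalytic subunit of PP1, differed by 0.40 (siRNA 1) and -0.41 (siRNA 2). Its 3 other measured probe sets ran from 0.18 to 0.77 with siRNA 1 and from -0.88 to -0.50 with siRNA 2.

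The 5 other measured genes nearest to the kinase genes' median pair of differences were found by Euclidean distance over the differences of siRNA 1 and of siRNA 2 from the control, which rest on 3 arrays. They were NUDT1, OIP5, SGO2, CKAP2L and RAD18, at distances between 0.0083 and 0.0653. NUDT1, which removes oxidised nucleotides, read 154 with siRNA 1, 248 with siRNA 2 and 377 with the control siRNA. SGO2, which protects centromeric cohesin, read 85.3 with siRNA 1, 133 with siRNA 2 and 205 with the control siRNA. OIP5, a centromere protein that loads CENPA, differed by -1.26 (siRNA 1) and -0.61 (siRNA 2), CKAP2L, a spindle protein, by -1.29 (siRNA 1) and -0.67 (siRNA 2) and RAD18, a ubiquitin ligase of DNA damage tolerance, by -1.33 (siRNA 1) and -0.67 (siRNA 2).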

How the data were processed

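The deposited table held linear intensities of 49388 probe sets in 3 columns, each from 1 array. The authors' software was GCOS 1.4, per the submitters' processing notes. How background, summarisation and normalization were handled is not given in the sources used here. Sorted log2 values of the 3 columns differed by at most 0.0977, so no further normalization was applied, and a shift of most transcripts in 1 direction would not show. Intensities were put on the log2 scale after values under 26.0, the median (50th percentile) of all values, were raised to it. Symbols came from the platform annotation. Entrez identifiers matched RefSeq for 44961 of 44988 probe sets, with 0 symbols changed. For each gene the single-symbol probe set of highest mean log2 intensity was used. Groups followed the title labels. With 1 array per group there was no test. The counting threshold was a log2 difference of 1. The kinase genes and the 9 lists (119 different genes, some in more than 1 list) were chosen with earlier results of these data known. All kinase genes are named, with the 2 lowest and the 2 highest genes of each list by siRNA 1 minus control and the 5 nearest genes. Alternatives were 3 floors, 2 normalizations, 3 choices of probe set and 2 thresholds. The counting code was checked on simulated data. Python 3.11.15, numpy 2.4.6, pandas 2.3.3 and matplotlib 3.10.9 were used.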

Additional observations from a re-analysis of the deposited data

How the results depend on the processing

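With 1 array per group no array could be left out. The count of kinase genes at least 2-fold lower with siRNA 1 was 1 at a threshold of 3-fold (0.168% of all measured genes), where it was 9 at 2-fold. With siRNA 2 the count was 6 at 1.5-fold (4.67%), where it was 0 at 2-fold. Between siRNA 1 and siRNA 2 the counts were 8 at 1.5-fold (4.87%) and 0 at 3-fold (0.0443%), where it was 1 at 2-fold, and a floor at the 75th percentile gave a median of -0.51 over the 8 kinase genes still measured. The other 43 recomputed medians and counts moved by under 0.2 on the log2 scale or by at most 1.5 times. Among these, the 2-fold count with siRNA 1 was 6 of 8 genes with a floor at the 75th percentile, where PLK1 and PLK4 were no longer measured. It was 7 of 10 with probe sets averaged and 8 of 10 with the dimmest measured probe set. Of the recomputed differences of single kinase genes, 187 moved by under 0.2 and 17 by more, and 0 of the 2-fold differences changed sign. That last count was largely fixed in advance, as a floor cannot reverse a sign and the sorted columns differed by at most 0.0977. Many of the 187 could not move. The probe sets used were above the floor on all arrays, so dropping or lowering the floor left them unchanged. The choice of probe set could move only PLK1, PLK4 and NEK2, as the other genes had 1 probe set each. Averaging all probe sets or taking the dimmest measured one put NEK2 at -0.35 and -0.09 with siRNA 1 and at -0.29 and -0.09 with siRNA 2, and averaging put PLK1 at -0.95 with siRNA 1. An average counted a probe set under the floor on every array as 0. The dimmest measured NEK2 probe set passed the floor in the control only. These values are thus only bounds. A floor at the 75th percentile put BUB1 at -0.11 and MELK at -0.52 with siRNA 1, neither any longer 2-fold lower. Restricting genes to plain probe sets left no measured kinase gene. The list medians were recomputed too, a choice made after seeing the data, and 124 moved by under 0.2 and 20 by more. Averaging probe sets, with the same floor and with dim ones again counted as 0, brought the siRNA 1 medians of the Aurora, Polo and checkpoint partner lists to -0.41, -0.69 and -0.51. Plain probe sets, of which the transcription regulators had 4, put their siRNA 1 median at 0.16. No paired analysis was possible because each group holds 1 array. The array number limits all values, and kinase probe sets near the floor are the least certain.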
